A study of Dugesia japonica with 18 samples.

Results

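The Early growth response (EGR) wound factor of the planarian Dugesia japonica was represented by 1 unigene, an assembled transcript, of 267235 in the deposited table. It is TRINITY_DN4276_c0_g1, whose closest Swiss-Prot entry is mouse Early growth response protein 4 and whose closest entry in the nr protein database is early growth response-2 of the planarian Schmidtea mediterranea. The rule took this unigene and any other whose Swiss-Prot description reads Early growth response protein and that reached 1 CPM (the count divided by the library total and scaled to a common total) in at least 3 of 18 libraries. No second unigene carried that description at any level, and none carried the words early growth response in its nr description. The unigene reached 1 CPM in 11 of the 18 libraries, namely 6 of head, 2 of trunk and 3 of tail. Because it was chosen by its values in these same libraries, its levels and fold changes are given as a description, with no test. The Swiss-Prot and nr entries name different EGR members, so it is called the EGR unigene here.

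EGR proteins are zinc finger transcription factors of the immediate-early class, which are transcribed within a short time of a stimulus from factors already present in the cell. In vertebrates their promoters are switched on by serum response factor together with ETS factors that the ERK branch of the MAP kinase cascade phosphorylates, and NAB proteins bind EGR proteins and repress their activity. In Schmidtea mediterranea, egr genes are among the transcripts induced at any wound, alongside fos-1, jun-1 and runt-1. Other members of the family act later in that animal, in the renewal of the epidermis and in the regrowth of the brain.

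Planarians regrow a whole body from a cut piece, and the libraries hold polyA-selected RNA of head, trunk and tail pieces; no strain, transgene or drug is named. Each piece has days 0, 1, 3, 5, 7 and 10, each as 1 library made from 10 to 20 mixed animals. The labels do not tell whether day 0 precedes the cut or follows it directly. With no repeated pool, the 3 fragments of a day stand in for replicates of that day, and the 6 days of a fragment for replicates of that fragment.

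Library totals ran from 17547716 to 21229980 counts. A single unigene without a name took 41.2 to 49.6% of the counts in tail, 21.9 to 26.1% in trunk and 26.2 to 32.2% in head, apart from the head library of day 1, where it took 13.0%. TMM scaling, which corrects for such differences in composition, gave factors from 0.680 to 1.50, the highest in that same library, so levels are given both by library total and by TMM. The head and tail labels matched their markers. Of 8 tested head markers (opsins, arrestins and a secreted frizzled-related protein), 5 were higher in head than in tail and 0 lower, and of 7 tail markers (Wnt-11 ligands and posterior Hox genes) 6 were lower in head and 0 higher, beside 18.9% of all tested unigenes called higher in head and 19.1% lower. The tail marker that did not pass is a Wnt-11b-2 unigene that nr calls wnt-1 and that is described with the wound genes. The 2 tested trunk markers did not set trunk apart from head. Their summed CPM was 21.9 to 49.4 in trunk, 28.0 to 68.3 in head and 8.55 to 16.4 in tail. By TMM the sums were 23.9 to 46.2 in trunk and 23.3 to 45.5 in head, so the trunk label was not checked by them.

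The EGR unigene was low in all fragments at day 0, stood at its highest in all fragments at day 1, and was several-fold lower again by day 3. In head its counts at days 0, 1, 3, 5, 7 and 10 were 22, 447, 93, 77, 37 and 53, or 1.10, 23.6, 5.21, 3.96, 1.92 and 2.50 CPM. In trunk they were 17, 142, 37, 16, 9 and 9, or 0.920, 7.25, 1.95, 0.761, 0.509 and 0.502 CPM. In tail they were 12, 230, 27, 19, 10 and 12, or 0.684, 12.2, 1.47, 1.07, 0.558 and 0.671 CPM. Every day 1 library was above every other library, since the lowest at day 1, trunk, was at 7.25 CPM and the highest on any other day, head at day 3, was at 5.21 CPM. By TMM-scaled CPM these were 6.84 and 4.50, again without overlap. All 18 counts lay above the floor of 3 counts used for detection, and the exact 95% Poisson interval of the lowest, trunk at day 10, was 0.229 to 0.953 CPM. Intervals here and below cover counting error only.

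**Figure D1:**
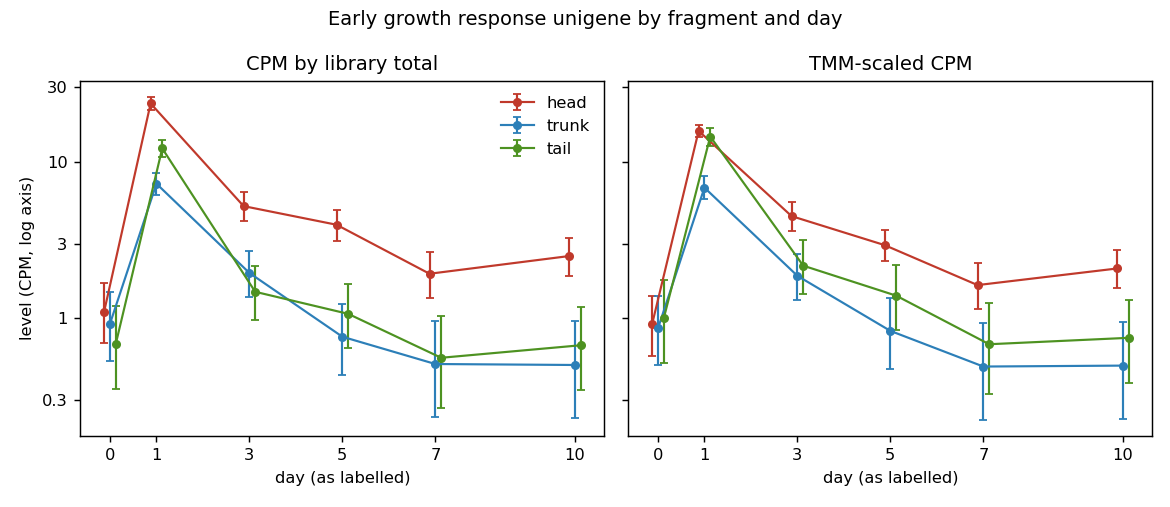
Level of the EGR unigene in each of the 18 libraries (y axis, CPM on a log axis; x axis, day as labelled), by library total on the left and TMM-scaled on the right, with exact 95% Poisson intervals as bars. All fragments peak at day 1, at 7.25 to 23.6 CPM by library total, and head stays above trunk and tail from day 3 on.

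Averaged over the 3 fragments, the level was 0.902 ± 0.209 CPM at day 0 (SD, n = 3 fragments) and 14.4 ± 8.41 CPM at day 1. It was 2.88 ± 2.03 CPM at day 3, 1.93 ± 1.77 at day 5, 0.997 ± 0.803 at day 7 and 1.22 ± 1.11 at day 10. The spread between fragments was therefore small at day 0 and as large as the mean, or nearly so, from day 5 on. In bulk tissue a lower level can come from fewer cells of a type or from less RNA per cell, and these cannot be told apart.

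The day 1 level exceeded day 0 in each fragment by more than the counting error. By TMM scaling the ratio was 17.2-fold in head (95% exact conditional binomial interval 11.2 to 27.7), 14.6-fold in tail (8.17 to 28.6) and 7.96-fold in trunk (4.80 to 14.0). The intervals of the 3 fragments overlap. From day 1 to day 3 the level was lower by a factor of 6.70 in tail (4.49 to 10.4), 3.67 in trunk (2.54 to 5.42) and 3.51 in head (2.80 to 4.43). The interval of tail lies just above that of head for this decline, while trunk overlaps both; by library total the factors were 8.27 in tail (5.54 to 12.8) and 4.54 in head (3.62 to 5.74), which overlap.

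From day 5 on, the head libraries lay above the head library of day 0 by more than the counting error. For trunk and tail no such difference from day 0 was seen. Each ratio sets 1 library against 1 other, so the spread between pools is not covered. All head ratios share 1 day 0 library of 22 counts. In head the level at day 5 was still 3.20-fold that of day 0 (1.97 to 5.40), at day 7 it was 1.77-fold (1.02 to 3.16) and at day 10 it was 2.27-fold (1.36 to 3.91), all by TMM. The lower bound at day 7 lies close to 1. In trunk the ratio at day 5 was 0.965 (0.456 to 2.03), at day 7 it was 0.571 (0.224 to 1.35) and at day 10 it was 0.578 (0.227 to 1.37). In tail the corresponding ratios were 1.40 (0.644 to 3.15), 0.683 (0.264 to 1.72) and 0.750 (0.308 to 1.83). The intervals of trunk and tail include 1 on days 5, 7 and 10, so no difference from day 0 beyond counting error was seen there, at counts of 9 to 19.

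A model of fragment plus day over all 18 libraries (edgeR) put the shared day 1 effect at log2 3.69 ± 0.33 (SE), or 12.9-fold over day 0. Day 3 was at 1.54 ± 0.34, day 5 at 0.77 ± 0.35, day 7 at -0.09 ± 0.37 and day 10 at 0.13 ± 0.36. Leaving out the head library of day 1, which stood apart in composition, gave 3.86 for day 1, and leaving out all head libraries gave 3.42. Without the head library of day 0, day 1 was at 3.24, day 5 at 0.29 and day 10 at -0.36. Straight slopes over log2(day + 1) were -0.64 ± 0.56 in head, -0.91 ± 0.62 in trunk and -1.13 ± 0.62 in tail, but they describe a curve with an early peak poorly. Without its own day 1 library the slope of head was 0.26, that of trunk -0.23 and that of tail -0.14.

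Head carried more of the EGR transcript than trunk from day 1 on and, by TMM, more than tail mainly from day 3 on. Over the 6 days the level by library total was 6.39 ± 8.58 CPM in head (SD, n = 6 days), 2.77 ± 4.63 in tail and 1.98 ± 2.64 in trunk, with medians of 3.23, 0.875 and 0.840 CPM. Those SDs hold the day 1 peak. Without day 1 the means were 2.94 ± 1.64 CPM in head, 0.891 ± 0.379 in tail and 0.928 ± 0.596 in trunk (n = 5 days), so tail and trunk are neighbours that do not differ beyond their spread. In the model, head was above tail by log2 0.78 ± 0.23 and above trunk by 1.37 ± 0.23, and trunk was below tail by -0.60 ± 0.24.

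Day by day and by TMM, the head-to-tail ratio was 0.920 at day 0 (0.436 to 2.04) and 1.09 at day 1 (0.924 to 1.28). It was 2.07 at day 3 (1.34 to 3.31), 2.11 at day 5 (1.26 to 3.69), 2.39 at day 7 (1.17 to 5.39) and 2.78 at day 10 (1.46 to 5.71). The interval thus included 1 at days 0 and 1 and lay above 1 on the later 4 days. Fitted on days 0 to 3 alone the head-tail difference was log2 0.37 ± 0.27, and on days 5 to 10 alone it was 1.25 ± 0.34. By library total head was above tail on 6 of 6 days, with ratios of 1.61 to 3.72 and 5 intervals above 1, that of day 1 included (1.94, 1.65 to 2.28). This scaling shifts all unigenes, since the median head-tail difference of all tested unigenes is then log2 0.72 instead of 0.02, and relative to that median the EGR unigene was 0.77 higher in head.

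Against trunk, head was higher on 6 of 6 days under both scalings. The TMM ratio was 1.07 at day 0 (0.541 to 2.14), 2.31 at day 1 (1.90 to 2.80), 2.41 at day 3 (1.63 to 3.63) and 4.18 at day 10 (2.04 to 9.64). Tail over trunk was 2.12 at day 1 by TMM (1.72 to 2.64) and 1.68 by library total (1.36 to 2.09). On the other days its interval included 1 under both scalings. At day 1 trunk was thus the lowest of the 3 pieces under either scaling.

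**Figure D2:**
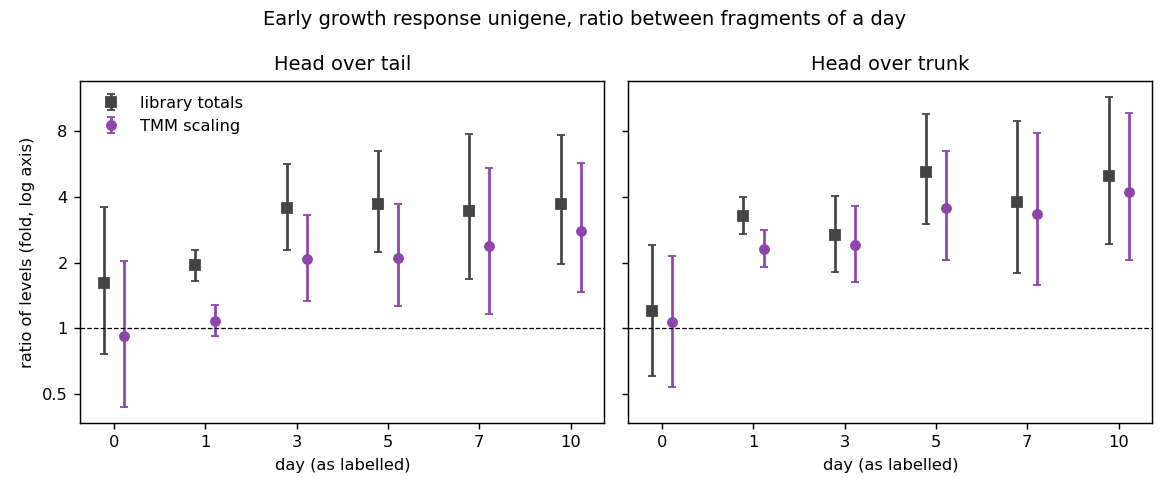
Ratio of the EGR unigene in head over tail (left) and over trunk (right) on each day (y axis, fold on a log axis; x axis, day as labelled), by library totals (squares) and TMM (circles), with exact conditional binomial 95% intervals; the dashed line marks equal levels. By TMM the head-to-tail ratio is 0.920 at day 0 and 2.78 at day 10.

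Neuronal markers were also higher in head. Of 17 tested neuronal markers (synaptotagmins, syntaxin, SNAP-25, choline acetyltransferase, neuroendocrine convertase 2), 11 were higher in head than in tail and 3 lower (adjusted p under 0.05, edgeR), beside 18.9% of all tested unigenes higher and 19.1% lower. Their summed TMM-scaled CPM was 1174 to 1351 in head against 365 to 796 in tail. Of 10 muscle markers 1 was higher in head and 5 lower, with sums of 3994 to 6232 in head and 8330 to 11207 in tail; by library total the sums overlap, at 5854 to 7484 and 7124 to 8610 CPM. Of 15 stem cell markers (piwi-like, MCM and ribonucleotide reductase genes) 0 differed between head and tail at that threshold. Of 8 intestinal markers 6 were higher in head than in tail, of 2 trunk markers 1 and of 1 epidermal marker 1, and 0 of these were lower; lists of 1 or 2 markers say little beside the 18.9% of all unigenes. At day 1, 0 of the 17, 10 and 15 markers were called against day 0, beside 0.364% of all tested unigenes, so these counts say little. The stem cell sum was 770 to 973 at day 1 against 463 to 1141 at day 0. The median day 1 difference of the stem cell markers was log2 0.45, beside -0.00082 over all unigenes tested. No marker of these lists was at 0 throughout a fragment. The part of these cell types in the EGR values was not tested.

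Among all 23616 tested unigenes, those that reached 1 CPM in at least 3 libraries, few showed the profile of the EGR unigene. Every day 1 library above every other library was seen for 33 unigenes, or 0.14% of those tested. Day 1 as the highest of the 6 days in all 3 fragments was seen for 311, or 1.32%. Since the unigene was chosen by this profile, these shares only place it. Its day 1 fold was exceeded by 89 unigenes, 85 of which had a library with no count, so that the size of their fold is poorly determined.

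Far fewer unigenes passed at day 1 than between fragments, and their number depended on the fit. Against day 0, 86 unigenes passed an adjusted p of 0.05 in the edgeR quasi-likelihood test (0.364% of those tested), 64 of them higher at day 1 and 22 lower. DESeq2 called 218, and edgeR called 423 with no filter on low counts, 50 without the head library of day 1, 27 without all head libraries and 9 with no fragment term. An F test over all days called 1083 unigenes (4.59%).

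Serum response factor, the NAB homolog and Elk-3, which act with EGR genes in vertebrates, lay near their day 0 level at day 1. Serum response factor (Serum response factor homolog B, TRINITY_DN556_c0_g2), the activator of egr promoters, had 9.86 to 16.2 CPM at day 0 and 12.3 to 18.6 at day 1, a log2 difference of 0.05 ± 0.13 (adjusted p = 0.955, edgeR). The NAB co-repressor (NGFI-A-binding protein homolog, TRINITY_DN7938_c0_g1) had 19.6 to 43.7 CPM at day 0 and 23.7 to 50.9 at day 1, a difference of -0.08 ± 0.10 (adjusted p = 0.886). Day 0 and day 1 values overlap for both. The ETS factor Elk-3 (TRINITY_DN2046_c0_g1), of the family that binds beside serum response factor, differed by 0.02 ± 0.12 (adjusted p = 0.984). Other ETS factors of the list lay further from day 0. SAM pointed domain-containing Ets transcription factor (TRINITY_DN10003_c1_g1) had 22.6 to 28.1 CPM at day 0 and 34.8 to 41.4 at day 1, without overlap, a difference of 0.42 ± 0.13 (adjusted p = 0.238, edgeR). ETS translocation variant 4 (TRINITY_DN507_c1_g1) was highest at day 1 in all 3 fragments by TMM, with a difference of 0.53 ± 0.28 (adjusted p = 0.579, edgeR). Another unigene of that name (TRINITY_DN33056_c0_g1) went the other way, with a difference of -0.53 ± 0.22 (adjusted p = 0.447, edgeR). Of the 8 tested unigenes of this list of EGR partners and ETS factors, 0 were called at day 1 by edgeR or by DESeq2. Over all tested unigenes edgeR called 0.364%, so 0 of 8 says little. Of the 8, 2 had an unadjusted p under 0.05 (edgeR), beside 9.61% of all unigenes. The median log2 difference of the 8 was 0.02, with a range of -0.53 to 0.53, beside a median of -0.00082 over all unigenes tested.

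None of the other lists had a member called by edgeR at day 1. Of 6 tested AP-1 and ATF factors, bZIP proteins of the immediate-early class and their relatives, 0 were called by edgeR or DESeq2 and 1 had an unadjusted p under 0.05. Their median was 0.01, with a range of -0.05 to 0.28. The list held jun-B and no Fos by Swiss-Prot name, and jun-B (TRINITY_DN130787_c0_g1) differed by 0.04 ± 0.10 (adjusted p = 0.966, edgeR). Of 86 MAP kinase cascade members and dual specificity phosphatases, which remove the phosphates that activate MAP kinases, 0 were called by edgeR, 1 by DESeq2 and 14 had an unadjusted p under 0.05, with a median of -0.10 and a range of -0.90 to 0.62. Of 62 members of families with wound-induced members in planarians, most of them TNF receptor-associated factors (TRAFs), 0 were called by edgeR, 2 by DESeq2 and 9 had an unadjusted p under 0.05, with a median of -0.06 and a range of -1.02 to 2.16, the highest being notum, which is among the wound genes described later. The list of KLF, Sp and WT1 zinc finger factors, matched by name, held 2 tested unigenes, Krueppel-like factor 3 and Transcription factor Sp3. Of these, 0 were called by either tool and 0 had an unadjusted p under 0.05. Over the 164 list members, 0 calls stand beside the 0.364% of all unigenes called, and 26, or 15.9%, had an unadjusted p under 0.05, beside 9.61% of all unigenes. By TMM, 6 of the 164 were highest at day 1 in all 3 fragments, beside 1.32% of all unigenes. These were 3 of the wound-induced families, 2 of the MAP kinase list and 1 ETS factor. The TRAF unigenes TRINITY_DN745_c3_g1 and TRINITY_DN8502_c0_g1 were among them.

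Over all days, 13 of the 164 list members passed the F test, 8 of the MAP kinase list and 5 of the wound-induced families, beside the 4.59% of all unigenes. None of the 13 passed at day 1, and 13 list members were lower at day 5 than at day 0 and 0 higher, beside 3.92% of all unigenes called lower at day 5. Mitogen-activated protein kinase 1 (TRINITY_DN11480_c1_g2), the ERK kinase, spanned log2 1.03 across days (adjusted p = 0.0094, F test, edgeR), with fitted log2 values of -0.31 at day 1, -1.03 at day 3 and -0.57 at day 10 against day 0. TNF receptor-associated factor 5 (TRINITY_DN5635_c0_g1), an adaptor of TNF receptor signalling, spanned 1.62 (adjusted p = 0.00697) and was lowest at day 5, at -1.62 ± 0.25. Another unigene of that Swiss-Prot name, TRINITY_DN745_c3_g1, spanned 1.11 (adjusted p = 0.00845), from 0.37 at day 1 to -0.74 at day 7. In nr both of these, and TRINITY_DN8502_c0_g1 below, are named TNF receptor-associated factor-2-like protein B. Dual specificity mitogen-activated protein kinase kinase 5 (TRINITY_DN8883_c0_g1) was lowest at day 5, at -0.81. Its adjusted p of 0.0122 rose to at most 0.0651 with 1 library left out, and the call was lost without the head or without the tail library of day 5. Mitogen-activated protein kinase kinase kinase 15 (TRINITY_DN2149_c0_g1, adjusted p = 0.0384) and TNF receptor-associated factor 2 (TRINITY_DN8502_c0_g1, adjusted p = 0.0384) were past the threshold by little, and lost the call in 14 and 12 of the 18 fits that leave out 1 library. All 6 of these unigenes lost the call with no fragment term, without all head libraries and without all tail libraries, and the ERK kinase also without all trunk libraries.

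Between head and tail, 26 of the 164 list members were called higher in head and 60 lower, beside 18.9% of all unigenes higher and 19.1% lower. With library totals in place of TMM these counts were 111 and 11, so the split depends on the scaling. The NAB homolog was among those higher in head, by log2 0.30 ± 0.07 (adjusted p = 0.0022, edgeR), and Elk-3 was higher by 0.32 ± 0.08 (adjusted p = 0.00545). Serum response factor differed by -0.19 ± 0.09 (adjusted p = 0.0985). These fragment differences are smaller than that of the EGR unigene, but the difference between them was not tested.

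Further fragment differences in the lists were larger. ETS translocation variant 4 (TRINITY_DN507_c1_g1), an ETS activator, was higher in head by 0.76 ± 0.20 (adjusted p = 0.00546, edgeR, 6 of 6 days). Another unigene of that name (TRINITY_DN33056_c0_g1) was lower in head by -0.56 ± 0.16 (adjusted p = 0.0103, edgeR). SAM pointed domain-containing Ets transcription factor (TRINITY_DN10003_c1_g1) was lower by -0.56 ± 0.09 (adjusted p = 0.000124, edgeR, 6 of 6 days) and reached 0.13 with library totals. Both Cyclic AMP-responsive element-binding protein 3-like protein 2 unigenes, membrane-bound bZIP factors, were higher in head, by 0.40 ± 0.08 (TRINITY_DN1301_c0_g1, adjusted p = 0.000678) and 0.33 ± 0.09 (TRINITY_DN508_c0_g1, adjusted p = 0.0073). On days 5 to 10 alone the latter was at 0.12 (adjusted p = 0.397, edgeR), and the ETS translocation variant 4 unigene TRINITY_DN507_c1_g1 did not pass either (0.72, adjusted p = 0.124). Mitogen-activated protein kinase kinase kinase 5 (TRINITY_DN2130_c0_g1), a stress kinase by its Swiss-Prot name, averaged 140.9 ± 67.0 CPM in head and 7.75 ± 2.96 in tail (SD, n = 6 days). The log2 difference was 3.47 ± 0.27. The nr entry of this unigene is a hypothetical protein of Piromyces sp. E2, so its identity is uncertain. TNF receptor-associated factor 4 (TRINITY_DN17431_c0_g1) averaged 3.81 ± 1.98 CPM in head and 0.0186 ± 0.0288 in tail, where it was below the floor of 3 counts. Dual specificity protein phosphatase 10 (TRINITY_DN299_c0_g1) was lower in head by -1.59 ± 0.30 (adjusted p = 0.000537), and on days 5 to 10 alone by -0.88 (adjusted p = 0.116, edgeR). Krueppel-like factor 3 (TRINITY_DN24313_c0_g1) was lower by -0.79 ± 0.12 (adjusted p = 6.42e-05), a call lost by library totals, where it was at -0.09 (adjusted p = 0.508, edgeR).

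Several unigenes that nr names as planarian wound genes also shared the day 1 peak. Since Swiss-Prot names miss many of them, 14 wound gene names were also searched in the nr descriptions of planarian proteins. This search was added after values had been seen, so it is a description with no test. It matched 25 unigenes, of which 15 were tested, under 10 of the names. Of these 15, 4 peaked at day 1 in all 3 fragments, beside 1.32% of all tested unigenes. Higher at day 1 than at day 0 in all 3 fragments by TMM were 8, for which no share over all unigenes is given. The median day 1 difference of the 15 was log2 0.65, with a range of -0.34 to 3.94, beside a median of -0.00082 over all unigenes tested.

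Runt-1 (TRINITY_DN14880_c0_g1), a runt-family transcription factor induced at wounds in Schmidtea mediterranea, had the largest day 1 difference of the 15, at log2 3.94 ± 0.52. In head it was at 0.501, 7.24, 1.23, 1.95, 0.832 and 1.41 CPM on days 0 to 10, in trunk at 0.325, 5.87, 0.526, 0.713, 0.566 and 0.167, and in tail at 0.228, 4.61, 0.273, 1.29, 0.167 and 0.950. As for the EGR unigene, no day 1 library overlapped any other, but here trunk was between head and tail by library total. That order does not hold by TMM scaling, where head was the lowest at day 1. The related Runt-2 (TRINITY_DN990_c0_g1) had 21.4 to 40.9 CPM at day 0 and 23.4 to 58.6 at day 1, a difference of 0.13 ± 0.14.

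The AP-1 factors that form the Fos and Jun dimer were among these genes under their nr names. 1-Jun (TRINITY_DN17848_c0_g1) had 8.04 to 19.7 CPM at day 0 and 25.5 to 51.1 at day 1, a difference of 1.22 ± 0.14 without overlap between the days. One fos-1 unigene (TRINITY_DN5678_c2_g1) had 46.3 to 84.9 CPM at day 0 and 94.7 to 189.7 at day 1, a difference of 0.75 ± 0.14, again without overlap. The other fos-1 unigene (TRINITY_DN5327_c1_g1) differed by 0.22 ± 0.13. Counts of unigenes that share a name may share reads.

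Genes of the Wnt system that mark wounds in planarians were higher at day 1 as well. wnt-1 (TRINITY_DN10261_c1_g1), a ligand induced at wounds and later kept at the posterior pole, was at 3.76 CPM in head, 0.0541 in trunk, under the floor of 3 counts, and 0.741 in tail at day 0, and at 12.6, 2.25 and 6.15 CPM at day 1, a difference of 2.28 ± 0.49. notum (TRINITY_DN14791_c0_g1), a secreted enzyme that inactivates Wnt ligands and that in Schmidtea mediterranea is induced mainly at wounds facing forward, was at 4.11, 0.650 and 0.969 CPM at day 0 in head, trunk and tail and at 5.61, 4.85 and 11.4 at day 1. By these library totals its tail value was thus the highest and its head value the least changed. The EGR unigene was highest in head by library total, but by TMM its head-to-tail ratio at day 1 was 1.09 (0.924 to 1.28). As a member of the wound-induced list, notum had a day 1 difference of 2.16 ± 0.48 that missed the threshold (adjusted p = 0.0909, edgeR), and over the fits with 1 library left out its adjusted p ran from 0.00096 without head day 1 to 0.525 without tail day 0. It passed with DESeq2 (adjusted p = 0.000684), and in edgeR by library totals (0.0305), with no filter on low counts (4.23e-11) and without all head libraries (0.00443). wntless (TRINITY_DN8446_c0_g2), the carrier that brings Wnt ligands to the cell surface, differed by 0.65 ± 0.17.

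The remaining names gave mixed values. inhibin-1 (TRINITY_DN6075_c0_g1), a TGF-beta family ligand, differed by 1.32 ± 0.38 and was highest at day 1 in head, at 12.9 CPM against 1.65 at day 0. PIM-1 (TRINITY_DN10081_c0_g2), a kinase, differed by 0.81 ± 0.17, whereas the unigenes named pim-1 and pim-3 differed by 0.01 ± 0.11 and 0.23 ± 0.24. The 2 glypican-1 unigenes, cell surface proteoglycans, differed by 0.06 ± 0.09 and 0.07 ± 0.17, and teashirt (TRINITY_DN10375_c0_g1), a zinc finger factor, by -0.34 ± 0.28. Day 1 values thus ran from near day 0 to the size seen for the EGR unigene.

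**Figure D3:**
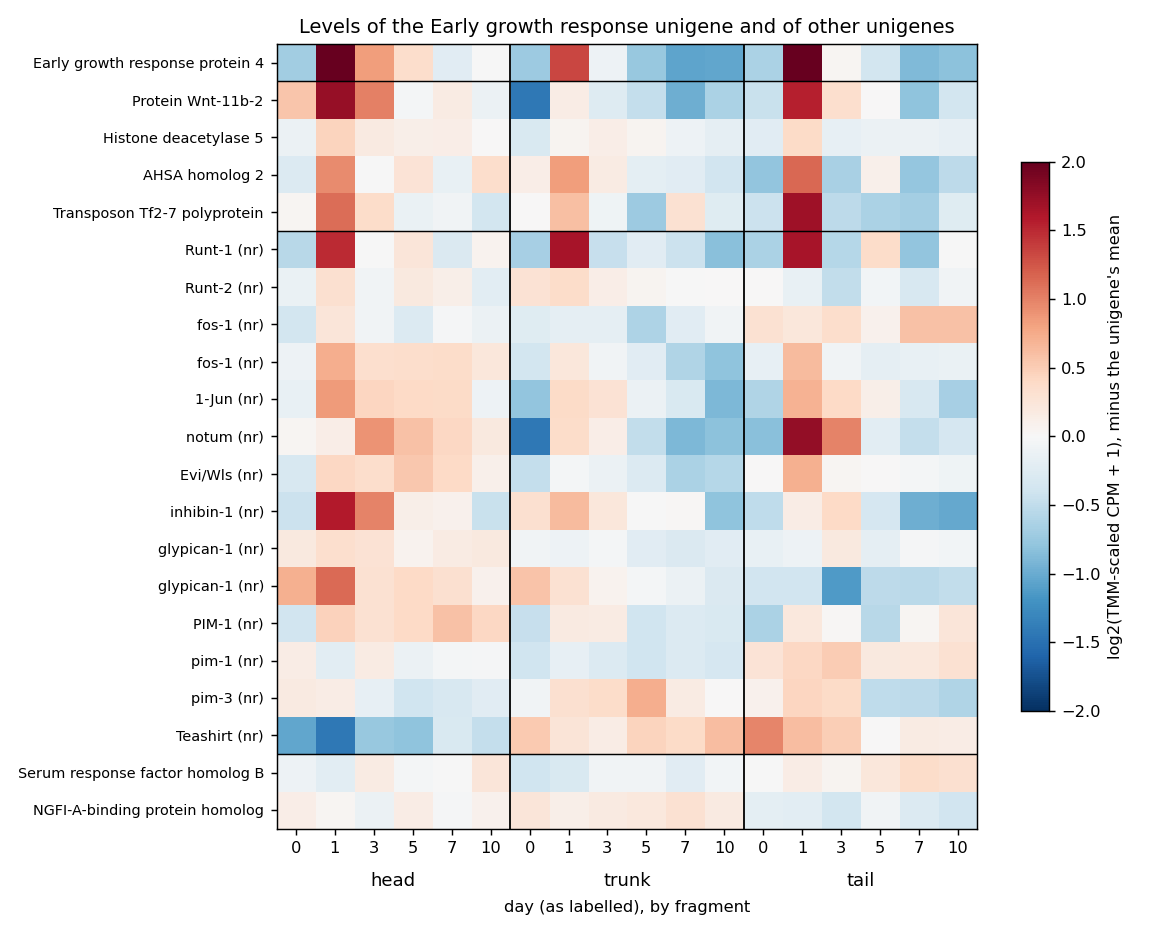
Profiles of the EGR unigene (top), 4 of the Swiss-Prot-named unigenes most like it, the other nr-named wound genes and 2 partners (bottom) over the 18 libraries (x axis, day within head, trunk and tail); colour is log2(TMM-scaled CPM + 1) minus the mean of the unigene, cut at 2 and -2. Day 1 is the darkest red column in each fragment for the EGR unigene and Runt-1, and serum response factor and the NAB homolog stay near white.

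The unigenes whose profile was most like that of the EGR unigene were ranked by Pearson r of log2(TMM-scaled CPM + 1) over the 18 libraries, among 23615 others. The libraries share depth and composition between genes, so r is a description only. None reached 0.9 and 18 reached 0.8. Among unigenes with a Swiss-Prot name the first was Protein Wnt-11b-2, the wnt-1 unigene above, at r = 0.850. It was followed by Histone deacetylase 5 (TRINITY_DN305_c0_g2), a chromatin deacetylase, at 0.845. Activator of 90 kDa heat shock protein ATPase homolog 2 (TRINITY_DN1554_c0_g1), a co-chaperone, followed at 0.834, and Transposon Tf2-7 polyprotein (TRINITY_DN11718_c0_g4) at 0.815.

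These unigenes reached their likeness in different ways. Histone deacetylase 5 differed between day 1 and day 0 by only log2 0.54 ± 0.11, and its r over the 15 libraries of other days was 0.675. The co-chaperone had 5.53 to 17.4 CPM at day 0 and 28.4 to 43.8 at day 1, a difference of 1.35 ± 0.25, and its r over the other days was 0.465. For the transposon unigene that r was 0.241. Leaving out 1 library at a time brought r to as little as 0.726 for the transposon unigene and 0.788 for the wnt-1 unigene.

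With unnamed unigenes included, a choice made after the values were seen, the order changed. TRINITY_DN2446_c0_g1, which has no name in either database, came first at r = 0.893, with 1.65 to 5.11 CPM at day 0 and 7.66 to 35.2 at day 1, a difference of 2.46 ± 0.25. Like the EGR unigene it was highest in head and lowest in trunk at day 1 by library total, at 35.2 and 7.66 CPM with tail at 14.0. Its r over the 15 other libraries was 0.832. Runt-1 came next at 0.885, but its r over the other days was 0.537. TRINITY_DN7793_c0_g1 and TRINITY_DN7647_c0_g1 followed at 0.861 and 0.859, with 0.217 and 0.559 over the other days. The fos-1 unigene TRINITY_DN5678_c2_g1 was the fifth at 0.853, with 0.810 over the other days. Serum response factor and the NAB homolog, the partners of EGR factors, had r of -0.103 and -0.138.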

How the data were processed

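The authors deposited raw counts per unigene for 18 libraries, per the file headers, with Swiss-Prot and nr descriptions. Per the submitters' processing notes FastQC, fastp 0.20.0, Bowtie2 and RSEM were used, with no roles given; RSEM estimates need not be whole, so rounding is possible. The deposited normalized columns were not used here, and 3 lines had been emptied. CPM and log2 values were computed here. A unigene was tested if it reached 1 CPM in 3 libraries or more, which left 23616, with the robust quasi-likelihood fit of edgeR 4.0.16 (R 4.3.3) on fragment plus day, TMM factors and 10 residual degrees of freedom; slopes over log2(day + 1) by fragment had 12. P-values were adjusted by Benjamini-Hochberg over all tested unigenes, with a threshold of 0.05. P-values thus rest on fragment-by-day deviations, not on replicate pools. The SE of an edgeR estimate was taken as its absolute size divided by the square root of its F statistic. For the EGR unigene this SE is a description and not a test. Intervals are exact, at 95%.

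The EGR unigene, the gene lists and the markers were chosen with earlier results of these data known. The 5 lists were matched on Swiss-Prot names. Named from each were up to 3 members called in the day F test with the largest range and 2 called in head against tail with the largest fold, and the 5 Swiss-Prot-named unigenes most like the EGR unigene, of which 1 is not reported here. Partners of EGR, jun-B and notum were named besides, by role or after their values were seen. On simulated counts edgeR found 59 of 100 2-fold and 96 of 100 4-fold changes at day 1 with 4 false calls, and 84 and 99 with 8 false calls for head against tail, over 23616 unigenes. The changes were placed only in unigenes above a minimum expected count, so the rates found do not cover the lowest unigenes. No other fragment or day differences were simulated. The fits were repeated with the size factors and the test of DESeq2 1.42.0, with stricter and no filtering, by library totals, on parts of the libraries and without each library in turn.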

Additional observations from a re-analysis of the deposited data

Results flagged for a closer look

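For 2 list members the slope over log2(day + 1) differed between fragments (F test of the interaction, edgeR), beside 1.5% of all tested unigenes. Transcription factor Sp3 (TRINITY_DN12062_c0_g1), which nr calls Sp5 of Dugesia japonica, had slopes of 0.72 ± 0.13 in head, -0.0023 ± 0.12 in trunk and -0.60 ± 0.11 in tail (SE; adjusted p = 0.000729). It was at 2.90 CPM in head and 26.7 in tail at day 0, and at 4.31 and 14.3 at day 3. Head was then above tail, at 13.5 against 7.01 CPM at day 5 and 12.4 against 7.70 at day 7, and at day 10 tail was at 11.7. Its call between head and tail over all days (log2 -1.67 ± 0.56, adjusted p = 0.0373) was lost in 10 of the 18 fits that leave out 1 library, on days 5 to 10 alone, by library totals with or without the top unigene and with no filter on low counts. TNF receptor-associated factor 3 (TRINITY_DN6453_c0_g1) had slopes of -0.12 ± 0.13 in head, 0.50 ± 0.15 in trunk and 1.05 ± 0.16 in tail (adjusted p = 0.0163). It was at 72.1 CPM in head and 2.28 in tail at day 0, and at 56.1 and 26.9 at day 10.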

How the results depend on the processing

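For the EGR unigene, the day and fragment differences kept their direction under all scalings, filters and tests tried, apart from days 7 and 10 against day 0, which lie near 0. Leaving out 1 library gave log2 3.24 to 4.05 for day 1, 1.07 to 1.91 for day 3, 0.29 to 1.12 for day 5, -0.57 to 0.26 for day 7 and -0.36 to 0.48 for day 10. It gave 0.65 to 0.98 for head minus tail, 1.25 to 1.55 for head minus trunk and -0.75 to -0.38 for trunk minus tail. Library totals without TMM moved head minus tail to 1.49 and trunk minus tail to -0.19. Slopes ran from -1.29 to 0.26 in head, -1.70 to -0.23 in trunk and -1.91 to -0.14 in tail; slopes over the day itself are in other units and were not set beside them. Of the list members, 0 called at day 1 became 3 by the DESeq2 test and with no filter on low counts, 1 by library totals without TMM, without the head libraries and without the trunk libraries, and 0 to 3 with 1 library left out. The 13 called on any day became 34 by DESeq2, 32 with no filter, 2 without the head libraries, 0 without the tail libraries or with no fragment term, and 6 to 15 with 1 library left out. The 13 lower at day 5 became 4 by library totals, 0 without the head or tail libraries or with no fragment term, and 2 to 20 with 1 library left out. The 26 higher in head became 17 on days 0 to 3 alone, 54 by totals without the top unigene and 111 by library totals, and 23 to 27 with 1 library left out; the 60 lower became 37 by totals without the top unigene, 39 with no filter, 11 by library totals, and 52 to 61. The 2 with differing slopes became 4 by DESeq2 and with no filter, and 1 to 3. SAM pointed domain-containing Ets transcription factor changed sign between head and tail by library totals, to 0.13. The cause was not tested. Fragments were compared within days, since the day is a term of the fit; with no day term head minus tail was 0.43. The low counts of the EGR unigene, 9 to 37 in trunk and tail outside day 1, limit what its late ratios can show.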
